A study of Mus musculus with 14 samples.

Results

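The 10 genes described here encode the receptor chains through which T cells receive interleukin-2 (IL-2) and its relatives, and those for interleukin-12 (IL-12) and interleukin-18 (IL-18). They were taken by symbol, and all 10 were found among the 55291 symbols of each of the study's tables of estimated mRNA counts. The shared gamma chain (Il2rg) pairs with a private chain for each cytokine: Il2rb for IL-2 and interleukin-15, Il7r for interleukin-7 and Il21r for interleukin-21. Il2ra raises the affinity of the IL-2 receptor, and Il15ra holds interleukin-15 for presentation to the Il2rb and Il2rg pair. These receptors signal through JAK kinases and STAT factors. The IL-12 receptor is built from Il12rb1 and Il12rb2 and acts mainly through STAT4, and Il12rb1 also serves the interleukin-23 receptor. The IL-18 receptor belongs to the interleukin-1 receptor family, binds through Il18r1, needs Il18rap to signal and acts through MyD88 and IRAK kinases. Naive and memory CD8+ T cells are known for high Il7r, and activated ones for Il2ra, Il2rb and Il12rb2.

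Libraries came from 2 experiments, all from mice with the genotype given as WT. In the first, whole OT-1 splenocytes, in which the T cell receptor is a transgene that recognises ovalbumin, were activated with 1 µg/mL of ovalbumin peptide 257-264. All cultures received 200 U/mL recombinant human IL-2 through 3 days of activation and 4 further days of expansion. Of these 7-day cultures, 4 had vehicle (DMSO) and 4 had ND-646 at 100 nM. This compound inhibits acetyl-CoA carboxylase, the enzyme that makes malonyl-CoA for fatty acid synthesis. The cultures were not sorted, though the labels call them CD8+ T cells. In the second experiment, CD8+ T cells were enriched and sorted from spleens (3 libraries) and from MCA205 fibrosarcomas (3 libraries) of C57BL/6 mice 14 days after tumour cells were placed under the skin. Tumour samples were pooled, and ages are not given in the labels.

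Each culture library held 23.5 to 33.8 M counts and each ex vivo library 19.6 to 21.0 M (M, 1e+06). All 16 CD8 T cell identity genes, such as Cd8a and Cd3e, were present in each experiment, with summed levels of 6454 to 6729 CPM (counts per 1e+06 of the TMM-scaled library total) in vehicle, 5843 to 6141 CPM in ND-646, 9657 to 9721 CPM in spleen and 4347 to 5846 CPM in tumour libraries. Tumour libraries also held fibroblast marker RNA. The 14 fibroblast and fibrosarcoma markers summed to 10697 to 15498 CPM in tumour and to 17.4, 3.85 and 2.04 CPM in spleen libraries 1, 2 and 3. In bulk samples, fewer cells of a type and less RNA per cell cannot be told apart. Results are therefore given both per TMM-scaled library and relative to the CD8 identity genes. The second scaling takes those genes as constant per cell, which was not tested.

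Il2rb or Il2rg was the most abundant receptor mRNA in each of the 4 groups. To compare genes with each other, CPM were divided by the length of the longest coding transcript in kilobases. Per kilobase, Il2rb led in vehicle (442 ± 21.8 CPM per kilobase, SD, n = 4), ND-646 (296 ± 6.89, SD, n = 4) and tumour libraries (298 ± 39.1, SD, n = 3). In spleen, Il2rg led at 364 ± 1.88 CPM per kilobase, followed by Il7r at 151 ± 5.13 (SD, n = 3). Il15ra was the lowest of the 10 in both cultures and in tumour, at 7.33 ± 0.428, 9.64 ± 0.168 and 7.48 ± 0.654 CPM per kilobase. In spleen the lowest were Il2ra at 0.650 ± 0.168 and Il12rb2 at 0.882 ± 0.100 CPM per kilobase (SD, n = 3). Both were well above the floor set by 3 counts in a library, since Il2ra had 44 to 76 counts and Il12rb2 48.7 to 62.3 in each spleen library.

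**Figure D1:**
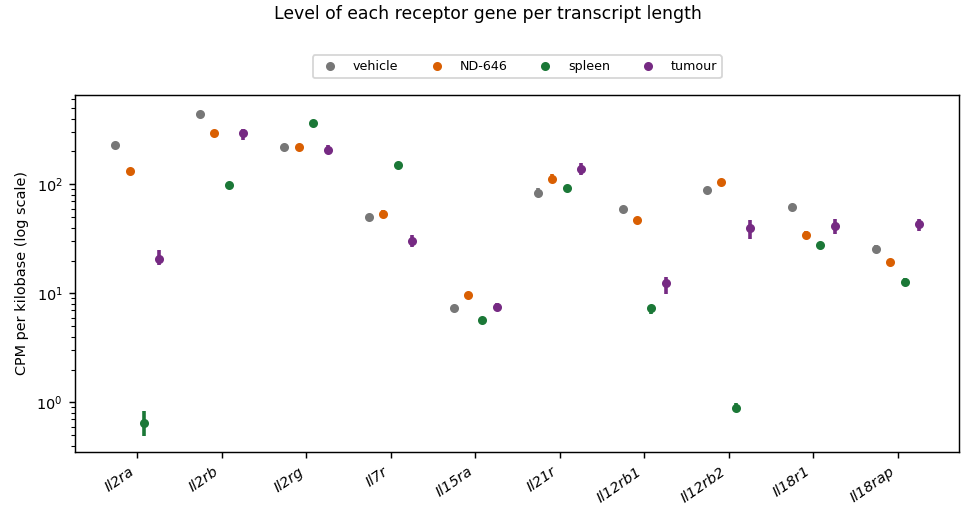
Level of each receptor gene in CPM per kilobase of transcript, on a log axis, with group means as points and the range over libraries as bars. Il2ra and Il12rb2 spanned the widest range over the groups, with spleen means of 0.650 and 0.882, and Il15ra was low in all 4 groups.

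Levels were then ordered across the 4 groups, with no test because the tables were made separately. Il2ra ran from vehicle to ND-646, tumour and spleen, with 352-fold between the extremes, and Il12rb2 from ND-646 to vehicle, tumour and spleen, with 118-fold. No neighbouring groups overlapped for these genes, for Il12rb1 or for Il18rap, the last being highest in tumour. Il2rb and Il18r1 were highest in vehicle and lowest in spleen, and their tumour and ND-646 values overlapped. Il7r and Il2rg were highest in spleen and lowest in tumour, with vehicle and ND-646 overlapping for both and ND-646 overlapping tumour for Il2rg. For Il21r, tumour overlapped ND-646 and spleen overlapped vehicle, and for Il15ra, tumour overlapped vehicle. These orders are of CPM.

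**Figure D2:**
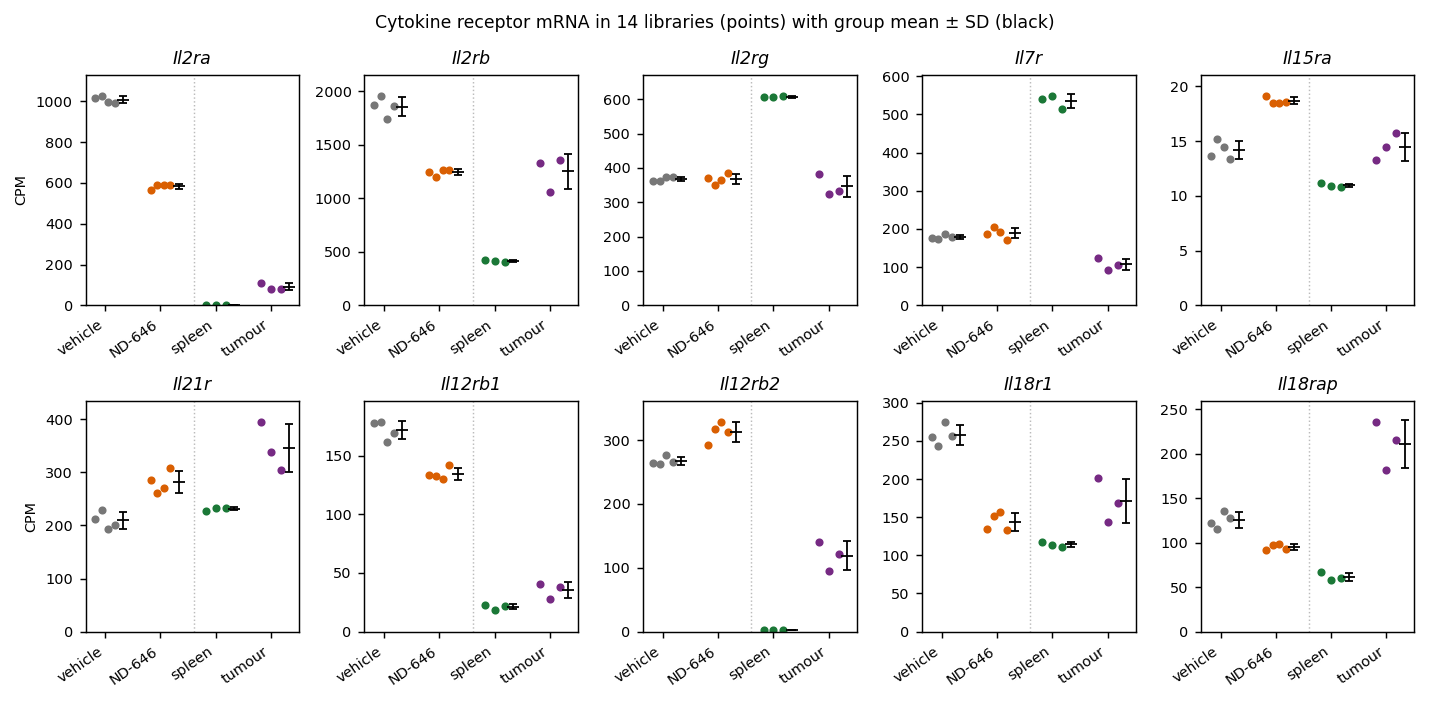
CPM of the 10 receptor genes in each of the 14 libraries (points), with the group mean and SD in black; a dotted line separates the experiments, whose tables were made separately. ND-646 libraries lay below vehicle for Il2ra, Il2rb, Il12rb1, Il18r1 and Il18rap, and tumour libraries lay above spleen for all but Il2rg and Il7r.

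Start-site regions are shown for 4 genes on which the results below turn: Il2ra and Il12rb2, which rose most in tumour, Il7r, which fell most there, and Il18r1, which fell most with ND-646. RefSeq windows of 300 bases (250 before the transcript start and 50 after it, build GRCm38.p6) were matched by symbol for 8 of the 10 genes. The build behind the deposited counts is not given in the sources used here. Each was searched on both strands for 7 short motifs, and capitals mark every match. The motifs were TTCNNNGAA (STAT factors), AGGTGT (T-box factors), GTAAACA (FOXO), GGAAAA (NFAT), GGG and TTTCC with 2 bases between (NF-kB), TGANTCA (AP-1) and CCGGAAGT (ETS).
Il2ra, chr2:11642542-11642841, plus strand: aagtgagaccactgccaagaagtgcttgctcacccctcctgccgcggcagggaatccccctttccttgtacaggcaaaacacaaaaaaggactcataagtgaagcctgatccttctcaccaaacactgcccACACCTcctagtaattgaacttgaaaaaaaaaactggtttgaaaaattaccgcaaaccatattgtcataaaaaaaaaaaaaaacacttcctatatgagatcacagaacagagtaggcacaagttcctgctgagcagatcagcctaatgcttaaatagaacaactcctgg
Il12rb2, chr6:67376139-67376438, minus strand: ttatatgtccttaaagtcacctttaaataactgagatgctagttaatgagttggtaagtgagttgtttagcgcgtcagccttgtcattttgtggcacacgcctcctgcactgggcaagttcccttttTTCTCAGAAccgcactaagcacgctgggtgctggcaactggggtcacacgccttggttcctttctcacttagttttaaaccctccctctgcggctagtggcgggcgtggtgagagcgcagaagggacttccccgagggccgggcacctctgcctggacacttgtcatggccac
Il7r, chr15:9529827-9530126, minus strand: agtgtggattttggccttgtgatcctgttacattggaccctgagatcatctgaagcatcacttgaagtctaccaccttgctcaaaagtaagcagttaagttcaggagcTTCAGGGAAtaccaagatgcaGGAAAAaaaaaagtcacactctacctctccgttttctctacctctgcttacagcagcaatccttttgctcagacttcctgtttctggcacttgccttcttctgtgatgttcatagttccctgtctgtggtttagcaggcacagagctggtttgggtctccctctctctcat
Il18r1, chr1:40465756-40466055, plus strand: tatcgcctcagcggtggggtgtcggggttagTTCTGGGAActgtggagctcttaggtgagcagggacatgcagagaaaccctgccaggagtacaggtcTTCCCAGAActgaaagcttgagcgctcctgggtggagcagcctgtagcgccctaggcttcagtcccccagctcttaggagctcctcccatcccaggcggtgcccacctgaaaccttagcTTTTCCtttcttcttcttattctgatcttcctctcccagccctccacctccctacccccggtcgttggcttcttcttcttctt

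The STAT motif was found in the windows of Il12rb2 (TTCTCAGAA, position -123 from the start), Il7r (TTCAGGGAA, position -142) and in 1 of the 3 Il18r1 windows, the one printed (TTCTGGGAA and TTCCCAGAA, at -219 and -152). Of 32851 windows of this length for all genes, 8.30% held it. The Il2ra window held a T-box motif alone (13.7% of all windows), while those of Il7r and Il18r1 also held the NFAT motif (23.4% of all windows). Among the windows not printed, Il15ra held NFAT, T-box and AP-1 motifs and Il21r a FOXO motif, and the printed matches do not overlap each other. A match describes letters and is not a measured binding site, and the absence of one says nothing about the factor.

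ND-646 was set against vehicle to see which receptor transcripts change when acetyl-CoA carboxylase is inhibited from activation onwards. ND-646 cultures held less mRNA of Il2ra, Il2rb, Il18r1, Il18rap and Il12rb1, by between 1.28-fold and 1.79-fold, and more of Il21r, Il15ra and Il12rb2, by between 1.17-fold and 1.34-fold. Thus 5 of 10 genes fell, 3 rose and 2, Il2rg and Il7r, did not pass the test. A call means a Benjamini-Hochberg p under 0.05 by the edgeR quasi-likelihood method. Of 14251 genes tested, 56.3% were called (29.8% higher, 26.5% lower), so 8 of 10 stands beside a high background. The groups did not overlap for 8 of 10 receptor genes, against 51.1% of all genes. The median log2 fold change of the 10 was -0.18, and that of all genes tested 0.01. Relative to the CD8 identity genes, all 10 passed, 5 up and 5 down, as the all-gene median moved by 0.126 in log2 units. That scaling called 8627 genes, 72.6% of them higher, against 52.9% of 8028.

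The chains of the IL-2 receptor did not move together. Il2rb, the signalling chain shared with interleukin-15, stood at 1868, 1958, 1735 and 1857 CPM in vehicle libraries 1 to 4. In the ND-646 libraries it stood at 1240.4, 1201, 1261 and 1263 CPM. Every ND-646 value lay below every vehicle value, and edgeR gave a log2 fold change of -0.58 ± 0.04 (SE; adjusted p = 1.14e-09). Il2ra, the high-affinity chain, was at 1019, 1029, 995 and 993 CPM in vehicle libraries. With ND-646 it was at 564, 589.6, 591 and 589 CPM, with a log2 fold change of -0.79 ± 0.04 (SE; edgeR adjusted p = 3.19e-12). Again the groups did not overlap, with SDs of 17.8 and 13.2 CPM. Il2rg, the gamma chain common to the family, was at 363, 363, 373 and 374 CPM in vehicle and 371, 349.8, 365 and 385 CPM in ND-646 libraries. These groups overlapped, with a log2 fold change of -0.0011 ± 0.0372 (SE; edgeR adjusted p = 0.983). Relative to the CD8 identity genes the Il2rg difference was 0.13 (edgeR adjusted p = 0.0214).

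Among the private chains of related cytokines, Il21r and Il15ra rose. Il21r, which pairs with the gamma chain for interleukin-21, was at 212, 229, 194 and 202 CPM in vehicle and 286, 262, 271 and 309 CPM in ND-646 libraries. The lowest ND-646 value exceeded the highest vehicle value, and the log2 fold change was 0.43 ± 0.06 (SE; edgeR adjusted p = 2.16e-05). Il15ra, the presenting chain, was at 13.7, 15.2, 14.5 and 13.4 CPM in vehicle and 19.2, 18.5, 18.5 and 18.5 CPM with ND-646, a log2 fold change of 0.39 ± 0.06 (SE; edgeR adjusted p = 2.85e-05). It was higher in 4 of 4 ND-646 libraries. Il7r, the interleukin-7 receptor alpha chain, was at 176, 173, 188 and 178 CPM in vehicle and 188, 204, 192 and 172 CPM in ND-646 libraries. Its groups overlapped, with ND-646 library 4 the lowest of all 8, and the log2 fold change was 0.08 ± 0.05 (SE; edgeR adjusted p = 0.147). Without that library the difference was 0.11 and passed (edgeR adjusted p = 0.0320), and relative to the CD8 identity genes it was 0.20 (adjusted p = 0.00142).

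The IL-12 receptor chains went in opposite directions. Il12rb1 was at 178, 179, 162 and 169 CPM in vehicle and 134, 133, 130.03 and 142 CPM in ND-646 libraries, with a log2 fold change of -0.35 ± 0.04 (SE; edgeR adjusted p = 7.91e-07). Il12rb2, the chain that recruits STAT4, was at 264, 263, 276 and 266 CPM in vehicle and 292, 317, 329 and 313 CPM with ND-646, a log2 fold change of 0.23 ± 0.04 (SE; edgeR adjusted p = 8.26e-05). Neither gene's groups overlapped. In the GENCODE M21 annotation, Il12rb2 overlaps Serbp1, an abundant gene on the opposite strand, over 6419 bases, and the use of strand in counting is not given in the sources used here. Serbp1 stood at 1020.2 and 991 CPM in vehicle and ND-646 libraries (edgeR adjusted p = 0.334).

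Both IL-18 receptor chains fell, by unequal amounts. Il18r1, the binding chain, was at 255, 243, 275 and 257 CPM in vehicle and 134, 151, 156 and 133 CPM in ND-646 libraries. Its log2 fold change of -0.84 ± 0.05 (SE; edgeR adjusted p = 5.53e-09) was the lowest of the 10. Il18rap, the signalling accessory chain, was at 122, 115, 136 and 128 CPM in vehicle and 91.8, 97.0, 99.02 and 93.1 CPM with ND-646, a log2 fold change of -0.40 ± 0.05 (SE; edgeR adjusted p = 1.02e-06). In neither case did the groups overlap. These genes lie next to each other on chromosome 1, 14507 bases apart, in the interleukin-1 receptor cluster. Upstream on the same strand, 136 bases from Il18r1, lies Il1rl1, the interleukin-33 receptor, which was scarce and fell from 1.63 to 0.278 CPM (edgeR adjusted p = 7.48e-07). Il2ra and Il15ra are likewise neighbours, 12096 bases apart on chromosome 2, and moved in opposite directions.

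**Figure D3:**
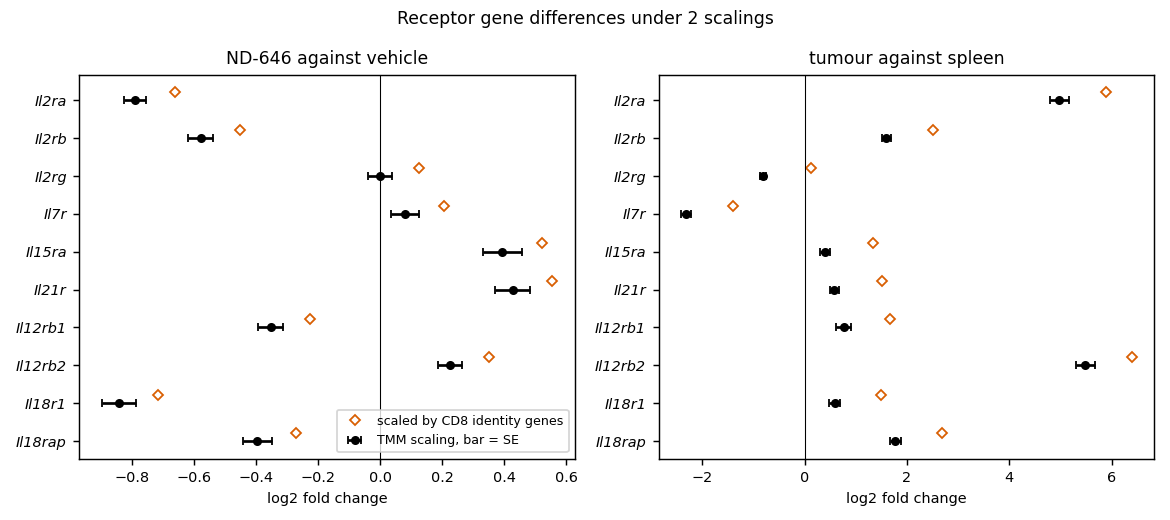
Log2 fold changes of the 10 receptor genes in each comparison under TMM scaling (black, bars are SE) and relative to CD8 identity genes (orange diamonds). In ND-646 cultures 5 genes lay below 0 under both scalings, and in tumour Il2rg moved from -0.81 to 0.12 while Il7r stayed below 0.

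Ratios of chains within a library do not depend on library scaling, and 6 log2 ratios per kilobase were tested by exact permutation, two-sided (smallest possible p = 0.0286). Il2rb exceeded Il2rg by 2.00-fold in vehicle and 1.34-fold in ND-646 libraries, a log2 difference of -0.58. The Il2ra to Il2rb ratio went from 0.518 to 0.447, a log2 difference of -0.21. Il15ra relative to Il2rb went from 0.0166 to 0.0326, a log2 difference of 0.97 and the largest of the 6. The ratio of Il12rb2 to Il12rb1 went from 1.49 to 2.23 (log2 difference 0.58), and that of Il18rap to Il18r1 from 0.414 to 0.565 (0.45). For each of these 5 ratios the 4 libraries of one group lay wholly apart from the other 4, with exact p = 0.0286 and adjusted p = 0.0343 over the 6. Il7r relative to Il2rg was 0.229 and 0.242, with overlapping groups (exact p = 0.4, adjusted p = 0.4).

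**Figure D4:**
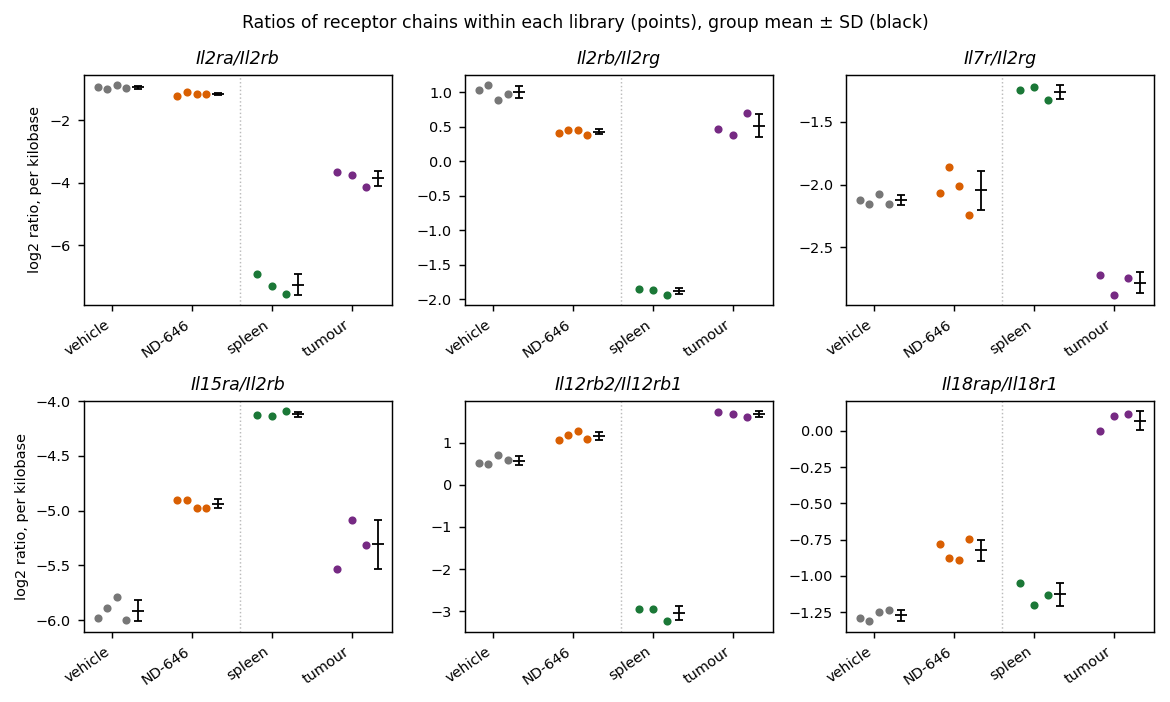
Log2 ratio of paired receptor chains, each per kilobase of transcript, in every library (points) with the group mean and SD in black; a dotted line separates the experiments. Vehicle and ND-646 libraries overlapped only for Il7r/Il2rg, and spleen and tumour libraries did not overlap for any of the 6 ratios.

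Around the receptors, genes were followed in 5 lists of related receptors, ligands, signalling proteins, response genes and transcription factors. Of 16 related cytokine receptors 14 were tested, and 8 rose and 2 fell (median 0.36, against 0.01 for all genes), or 9 and 2 relative to the identity genes. Ifngr2, a chain of the interferon gamma receptor, rose from 5.22 to 14.1 CPM, Il4ra, the interleukin-4 receptor chain, from 276 to 452 CPM, and Il6st, the gp130 signal chain, from 19.7 to 37.7 CPM. Their log2 fold changes were 1.43 ± 0.09, 0.71 ± 0.05 and 0.94 ± 0.06 (SE). The 2 that fell, chosen for naming after their values were seen, were Il1rl1 and the decoy receptor Il1r2, at -2.49 ± 0.29 and -2.52 ± 0.17. Il1rl1 passed the filter on low counts only through the vehicle libraries, so counting it supports nothing. Of 12 ligands and soluble regulators only 3 had enough counts to be tested, and 1 rose: Il18 went from 0.616 to 1.93 CPM (log2 fold change 1.65 ± 0.20, SE). Il23a was at 1.19 and 1.85 CPM and Il18bp, the soluble IL-18 inhibitor, at 3.69 and 3.39 CPM, without passing.

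Of 24 signalling genes, 13 rose and 4 fell (median 0.10), or 16 and 1 relative to the identity genes. Irak2, a kinase downstream of the IL-18 receptor, rose from 29.1 to 54.7 CPM and Tyk2, a kinase of the IL-12 receptor, from 98.4 to 122 CPM. Ptpn6, the phosphatase SHP-1, fell from 100.4 to 73.9 CPM. Among 13 tested response genes of 14, 3 rose and 6 fell (median -0.07), or 6 and 5 relative to the identity genes. Bcl2, the survival factor, rose from 591 to 853 CPM, while Prdm1, which encodes Blimp-1, fell from 24.0 to 13.7 CPM and Gadd45g, a stress sensor induced by IL-12 and IL-18, from 111 to 43.4 CPM. Of 14 transcription factors known to act on receptor genes, 2 rose and 9 fell (median -0.24), or 5 and 6 relative to the identity genes. The T-box factors Eomes and Tbx21, known activators of Il2rb, fell by 1.41 ± 0.08 and 0.64 ± 0.05 on the log2 scale (SE), and Relb, an NF-kB subunit, rose by 1.16 ± 0.08. The other gene that rose, Gabpa, did so by 0.15 and was chosen after its values were seen.

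Other markers moved in the same cultures. NK and gamma delta T cell markers, whose cells carry Il2rb and IL-18 receptors, were lower for 4 of 6 tested genes and higher for 1, while their summed level went from 169 to 177 CPM (vehicle) to 170.2 to 179 CPM (ND-646), most of it Trdc at 135 and 160 CPM. Of the defining NK genes, Klrb1c fell from 4.70 to 1.36 CPM with ND-646 (edgeR adjusted p = 1.76e-07). Ncr1 was at 0.352 and 0.175 CPM, below the filter and untested. Klre1, of the same list, was at 1.31 and 1.46 CPM and did not pass (edgeR adjusted p = 0.463). CD4 and regulatory T cell markers, whose cells carry Il2ra, were lower for 4 of 7 genes and higher for 2, with sums of 352 to 368 and 361 to 386 CPM. Cd4 itself was at 1.33 and 0.481 CPM and Foxp3 at 0.469 and 0.212 CPM. Of 8 markers of type 2 innate lymphoid and mast cells, 3 were tested and fell, and Areg and Mcpt4 had no count in either group. Their sums were 69.96 to 80.2 CPM (vehicle) and 36.0 to 38.4 CPM (ND-646). Of the CD8 identity genes themselves 6 rose and 7 fell. Among B cell, myeloid, dendritic, endothelial and fibroblast lists, 1, 1, 1, 0 and 0 genes rose and 5, 2, 2, 3 and 2 fell, of 7, 4, 5, 3 and 3 tested. Some that fell, such as Igkc at 0.693 and 0.00885 CPM, passed the filter on low counts only through the vehicle libraries. Counting those supports nothing. The B cell sums were 114 to 131 CPM (vehicle) and 148 to 173 CPM (ND-646), most of it Ighm, the 1 that rose, at 115 and 162 CPM. All 12 cell cycle genes fell, with sums of 2775 to 2917 and 1438 to 1798 CPM. The part of these changes in the receptor results was not tested.

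Sorted tumour cells were set against sorted spleen cells to see which receptors differ between the sites. Tumour libraries held more mRNA of 8 of the 10 receptor genes, from 1.32-fold for Il15ra to 45.1-fold for Il12rb2, and less of Il7r (4.99-fold) and Il2rg (1.75-fold). The test covered 15042 genes, of which 83.8% were called (43.6% higher, 40.2% lower), so a call alone sets no gene apart. All 10 had groups that did not overlap, against 86.2% of all genes. Their median log2 fold change was 0.67, and that of all genes 0.03. Relative to the CD8 identity genes 8 rose and 1, Il7r, fell, while Il2rg was no longer called. That scaling raised the all-gene median by 0.933 in log2 units and called 12097 genes, 84.5% of them higher, against 52.0% of 12602.

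The chains of the IL-2 receptor rose in tumour except for the gamma chain. Il2ra was at 3.66, 2.75 and 2.19 CPM in spleen libraries 1 to 3 and at 109.6, 82.0 and 81.1 CPM in tumour libraries, a difference of 31.7-fold. Its log2 fold change was 4.98 ± 0.19 (SE; edgeR adjusted p = 5.37e-08). Il2rb was at 423, 416 and 401 CPM in spleen and 1330, 1061 and 1357 CPM in tumour, with a log2 fold change of 1.596 ± 0.09 (SE; edgeR adjusted p = 2.22e-07). Across the separately made tables, tumour and ND-646 values overlapped for Il2rb, and tumour values of Il2ra lay below those of every culture. Il2rg was at 606, 605 and 611 CPM in spleen and 381, 325 and 333 CPM in tumour. It fell by 0.81 ± 0.06 on the log2 scale (SE; edgeR adjusted p = 1.79e-06), but relative to the CD8 identity genes the difference was 0.12 (adjusted p = 0.327). As a share of the identity gene counts, Il2rg was 6.27% ± 0.0530 in spleen and 6.79% ± 0.594 in tumour (SD, n = 3 each).

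Of the other private chains, Il7r fell while Il21r and Il15ra rose. It was at 541, 549 and 515 CPM in spleen and 123, 93.8 and 105 CPM in tumour, with a log2 fold change of -2.32 ± 0.09 (SE; edgeR adjusted p = 2.27e-08), or -1.40 relative to the identity genes. Under either scaling every tumour library lay below every spleen library. Il21r was at 228, 233 and 233 CPM in spleen and 395, 338 and 305 CPM in tumour, 0.58 ± 0.09 higher on the log2 scale (SE; edgeR adjusted p = 0.000162). Il15ra was at 11.1, 10.9 and 10.8 CPM in spleen and 13.2, 14.4 and 15.8 CPM in tumour, 0.40 ± 0.10 higher (SE; edgeR adjusted p = 0.00425). Relative to the identity genes these differences were 1.51 and 1.34. For both, tumour libraries were spread more widely than spleen libraries, with SDs of 45.9 against 2.74 CPM for Il21r and 1.27 against 0.167 CPM for Il15ra.

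The IL-12 receptor chains both rose, by very different amounts. Il12rb2 was at 2.99, 2.50 and 2.44 CPM in spleen and 141, 94.9 and 122 CPM in tumour libraries, with a log2 fold change of 5.49 ± 0.19 (SE; edgeR adjusted p = 3.10e-08). Its overlapping neighbour Serbp1 was at 589 and 730.0 CPM in spleen and tumour, and its part in the Il12rb2 counts was not tested. Il12rb1 was at 22.3, 18.6 and 22.1 CPM in spleen and 40.5, 28.2 and 38.1 CPM in tumour, 0.76 ± 0.14 higher on the log2 scale (SE; edgeR adjusted p = 0.000720). The cultures held more Il12rb1 than either, at 172 ± 7.99 CPM in vehicle (SD, n = 4).

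Both IL-18 receptor chains rose, Il18rap more than Il18r1. Il18rap was at 67.0, 58.0 and 59.9 CPM in spleen and 236, 182 and 215 CPM in tumour, with a log2 fold change of 1.78 ± 0.10 (SE; edgeR adjusted p = 2.50e-07). Il18r1 was at 118, 114 and 112 CPM in spleen and 201, 144 and 169 CPM in tumour, 0.59 ± 0.11 higher (SE; edgeR adjusted p = 0.000824). Tumour library 2 was the lowest for both. As a share of the identity gene counts, Il18rap was 0.596% to 0.691% in spleen and 4.04% to 4.18% in tumour, and Il18r1 was 1.15% to 1.21% and 3.24% to 3.44%. The neighbour Il1rl1 went from 0.485 CPM in spleen to 182 CPM in tumour. Reads that run on from Il1rl1 into Il18r1 cannot be separated in these tables, and the part of this in the Il18r1 difference was not tested.

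In the tumour comparison the same 6 chain ratios are given as a description, because 3 against 3 libraries cannot reach an exact p below 0.1, and each of the 6 had that value. The Il12rb2 to Il12rb1 ratio went from 0.122 in spleen to 3.20 in tumour, a log2 difference of 4.72. Il2ra relative to Il2rb went from 0.00651 to 0.0689, so Il2ra was the minor chain at both sites. It was also the minor chain in the cultures, where the ratio was 0.518 (vehicle) and 0.447 (ND-646). Il2rb relative to Il2rg went from 0.271 to 1.43, beside 1.34 in the ND-646 cultures of the other table. Il7r relative to Il2rg went from 0.416 to 0.146, and Il15ra relative to Il2rb from 0.0575 to 0.0252. Il18rap relative to Il18r1 went from 0.458 to 1.05. Spleen and tumour libraries lay apart for each ratio.

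Among 15 tested related receptors of 16, 7 rose and 6 fell in tumour (median 0.45, against 0.03 for all genes), or 10 and 4 relative to the identity genes. Il6ra, the interleukin-6 receptor chain, Il27ra, the interleukin-27 receptor, and Sigirr, an inhibitory member of the IL-18 receptor family, had the smallest p-values and fell, with log2 fold changes of -3.37 ± 0.07, -2.48 ± 0.07 and -1.83 ± 0.06 (SE). The 7 that rose, named after their values were seen, were Ifngr1, the ligand-binding chain of the interferon gamma receptor (168 to 608 CPM), Il1r1, Il1r2, Il1rl1, Il1rap, Crlf2 and Ifngr2. Il1r1, the signalling interleukin-1 receptor, went from 0.0821 CPM, below 3 counts a library, to 19.2 CPM, and Il1r2 from no count to 12.8 CPM. Il1r1, Il1r2 and Il1rl1 passed the filter on low counts only through the tumour libraries, so counting them supports nothing. Of 12 ligands and soluble regulators 4 were tested, and 3 were called higher, or all 4 relative to the identity genes. These 3 passed the filter on low counts only through the tumour libraries, so their count supports nothing. Il15 went from 0.212 to 2.03 CPM, Il12b, a subunit of IL-12, from 0.0654 to 1.46 CPM and Il18 from 0.0815 to 0.694 CPM. Il9 and Il12a, named because of it, had no count in either group. The spleen means of Il12b and Il18 lay below the floor of 0.145 to 0.150 CPM that 3 counts in a library set, and that of Il15 just above it.

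**Figure D5:**
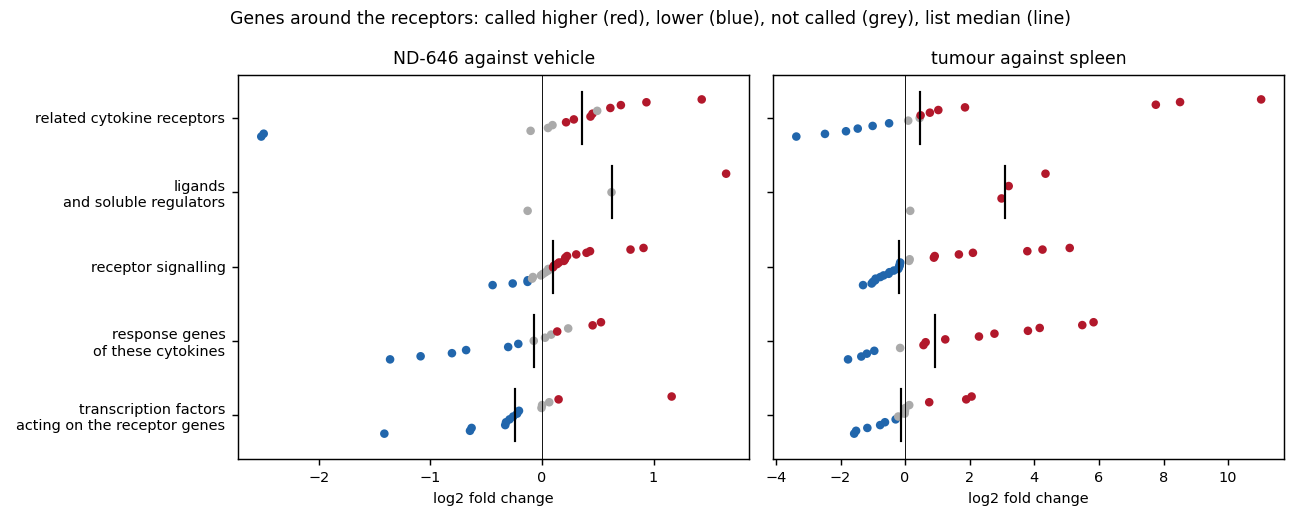
Log2 fold changes of tested genes in the 5 lists around the receptors, 1 point a gene, red where called higher, blue where called lower and grey where not called, with the list median as a line. Under TMM scaling signalling genes were mostly lower in tumour (15 of 24) and transcription factors mostly lower with ND-646 (9 of 14), and relative to CD8 identity genes those counts were 1 and 6.

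Of 24 signalling genes 7 rose and 15 fell in tumour (median -0.18), but relative to the identity genes 17 rose and 1 fell. Socs2 and Irak1bp1, among the 7, passed the filter on low counts only through the tumour libraries, so counting them supports nothing. Cish, a feedback inhibitor induced by STAT5, rose from 10.3 to 197 CPM (log2 fold change 4.25 ± 0.08, SE), Irak2 from 13.0 to 55.9 CPM and Stat3 from 234 to 743 CPM. In the cultures, where IL-2 was added throughout, Cish stood at 436 CPM (vehicle) and 588 CPM (ND-646). Of 14 response genes 9 rose and 4 fell (median 0.94), or 10 and 2 relative to the identity genes. Hlx, 1 of the 9 and named because of it, passed that filter only through the tumour libraries (0.197 and 9.10 CPM), so counting it supports nothing. Ifng, the interferon that IL-12 and IL-18 induce together, rose from 0.951 to 54.7 CPM, Gadd45b, a partner of Gadd45g, from 10.4 to 145 CPM and Bcl2l1, which encodes Bcl-xL, from 19.9 to 97.1 CPM. Of 14 transcription factors 3 rose and 6 fell (median -0.11), or 10 and 2 relative to the identity genes. Rel, an NF-kB subunit, rose by 1.89 ± 0.07 and Tbx21 by 2.06 ± 0.12, and Foxo1, a known activator of Il7r, fell by 1.17 ± 0.08 on the log2 scale (SE). Eomes, given because it was named with Tbx21 in the cultures, went the other way from Tbx21. It fell from 103 to 35.9 CPM, with a log2 fold change of -1.52 ± 0.12 (SE) under TMM scaling. Relative to the identity genes, the Foxo1 difference was -0.25 and did not pass (edgeR adjusted p = 0.0605).

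Beside these results, the NK and gamma delta list had 8 of 9 tested genes higher and 1 lower in tumour, with sums of 16.0 to 19.8 CPM in spleen and 57.8 to 90.3 CPM in tumour. Klre1, the most abundant, went from 2.86 to 23.5 CPM, and the defining NK genes Klrb1c and Ncr1 were both called higher, at 1.72 and 8.50 CPM and at 0.0820 and 0.873 CPM (edgeR adjusted p = 3.68e-05 and 0.000369). The spleen mean of Ncr1 lay below the floor of 3 counts. The CD4 and regulatory T cell list had 4 of 7 genes higher and 0 lower (sums of 40.2 to 45.0 and 324 to 426 CPM), led by Ctla4 at 3.66 and 243 CPM. The defining genes did not pass: Foxp3 was at 1.97 and 2.30 CPM and Cd4 at 0.357 and 0.521 CPM in spleen and tumour (edgeR adjusted p = 0.487 and 0.513). All 3 tested genes of type 2 innate lymphoid and mast cells rose (sums of 38.2 to 42.2 and 73.2 to 89.1 CPM). Most of these sums was Gata3, at 36.4 and 49.7 CPM. Of 9 macrophage, monocyte and neutrophil genes 6 rose and 0 fell (321 to 338 and 237 to 348 CPM). Of the dendritic cell markers 5 of 7 rose and 1 fell (16.5 to 26.5 and 332 to 412 CPM). Fscn1 made up most of the tumour sum, going from 2.08 to 320 CPM. Zbtb46, Xcr1, Itgax and Batf3 rose by less, the most abundant being Itgax, from 11.4 to 31.1 CPM. Clec9a fell from 1.24 to 0.613 CPM, and Flt3 went from 2.17 to 1.77 CPM without passing (edgeR adjusted p = 0.290). Of 6 B cell genes 5 fell and 1 rose (799 to 830.3 and 93.2 to 104 CPM). Of 7 endothelial genes 5 rose and 1 fell (214.9 to 220.3 and 109 to 124 CPM). The 1 that fell, Pecam1, made up most of the spleen sum, at 166 and 27.0 CPM. Cdh5 rose from 0.278 to 11.1 CPM. All 16 CD8 identity genes fell. All 13 tested fibroblast markers rose, as did all 12 cell cycle genes (426 to 537 and 2418 to 2624 CPM). Some genes that rose had spleen means below 3 counts, such as Col6a1 (0.0809 CPM), C1qc (0.0493), Vwf (0.0327) and Areg (0). They passed the filter on low counts only through the tumour libraries, so counting them supports nothing. The part of the listed cell types in the receptor results was not tested.

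Set side by side, the comparisons share no libraries. Il2ra, Il2rb, Il12rb1, Il18r1 and Il18rap were lower with ND-646 and higher in tumour, and Il15ra, Il21r and Il12rb2 were higher in both. Genes whose levels most resembled a receptor were sought over all 14 libraries among 11498 genes tested in both comparisons, by Pearson correlation of log2 (CPM + 0.5). Libraries of a group share their treatment, so these values describe group patterns. Il2rb was most like the ligand gene Wnt10b (r = 0.994), and Il2rg like Dock2 (0.997), which guides lymphocyte migration. The nearest to Il7r was AI467606 (0.997), to Il12rb1 the glucose transporter Slc2a3 (0.998), and to Il12rb2 the RNA-binding Ybx3 (0.999). Within the 8 cultures alone, Slc2a3 still gave r = 0.962, but AI467606 gave 0.50 and Ybx3 gave -0.17. Il18r1 was most like the receptor kinase gene Kit (0.978), Il18rap like Nrgn (0.994), Il15ra like Aldh1l2, a mitochondrial folate enzyme (0.979), and Il21r like the transcription factor Zbtb46 (0.956).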

How the data were processed

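Poly(A) RNA of 14 mouse samples was sequenced with a directional kit, per the labels' protocols. Values are estimated counts for each gene symbol, which the authors deposited without normalization in 2 tables. STAR, Salmon and DESeq2 appear in the submitters' processing notes. The sources used here do not give the build, annotation or strand setting. Groups came from sample titles, and whether replicates are separate animals or cultures is not stated. The p-values then reflect only library-to-library spread, which may be technical. No 2 replicates agreed within sampling noise (chi-square per degree of freedom of 2.33 or more).

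Rounded counts of each table were fitted separately (edgeR 4.0.16 under R 4.3.3). Genes were kept by filterByExpr and scaled by TMM. The quasi-likelihood test was robust, and Benjamini-Hochberg p-values over all tested genes were called at 0.05. The procedure was tested on simulated data. CPM used TMM-scaled libraries, and SE was derived from the F statistic. Chain ratios added 0.5 counts per chain and used lengths of the longest coding transcript in GENCODE M21. Of the symbols in the gene lists, 2 (Tcrg-C1 and Tcrg-C4) were not matched in the tables. The genes, lists and tests were chosen with earlier results of these data known. All 10 receptors were named, with the 3 smallest p-values of each surrounding list, the most abundant gene of marker lists and the most similar gene per receptor (for Il2ra, not reported here). Alternatives were DESeq2 1.42.0, limma 3.58.1 (voom), other filters, a replicate block, scaling by CD8 identity genes and leaving out each library.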

Additional observations from a re-analysis of the deposited data

Results flagged for a closer look

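Within a group of 4 libraries, 2 of the 32 sets of values examined had a library far from the others, and chance gives about 1 in 20. Il2ra in ND-646 library 1 stood at 564 CPM, below the 589 to 591 CPM of the other three. In the same library Il15ra stood at 19.2 CPM, above 18.5 CPM in each of the others. Neither moved the call of its gene, whose log2 fold changes without any 1 library ran from -0.80 to -0.78 for Il2ra and from 0.37 to 0.43 for Il15ra.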

How the results depend on the processing

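Counts of receptor genes called were 8 (ND-646 against vehicle) and 10 (tumour against spleen), and stayed within 1.5 times of these under every alternative run. Scaled by CD8 identity genes, 5 receptor genes were higher and 5 lower with ND-646, and 8 were higher and 1 lower in tumour. Il2rg changed sign: with ND-646 it was 0.13 under that scaling, 0.0060 without a low-count filter, 0.0048 and 0.0073 without vehicle replicates 3 and 4 and 0.017 without ND-646 replicate 2, and in tumour it was 0.12 under identity scaling. Under the other alternatives its ND-646 value kept its sign, the lowest being -0.034 without ND-646 replicate 4. Its ND-646 difference passed only under identity scaling. Il7r with ND-646 passed under identity scaling and without ND-646 replicate 4. Il23a passed with ND-646 without a low-count filter (0.63), under identity scaling (0.75) and without ND-646 replicates 2 (0.79) and 3 (0.81). With 1 library left out, the Il7r/Il2rg log2 difference in cultures ran from 0.018 to 0.15 and reached an adjusted p of 0.0286 without ND-646 replicate 4; the other culture ratios kept their direction and side of the threshold, and the tumour ratios, which cannot reach it, kept their direction. Adding 5 counts per chain changed no ratio call.

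Same-numbered replicates showed no shared pattern, with correlations of their deviations of -0.14 to 0.057 in cultures and -0.026 to -0.021 ex vivo. With so few libraries a group, this cannot exclude a pairing. With the number as a replicate block, 7864 and 12492 genes were called in place of 8028 and 12602, and no receptor call changed. All 8 called genes of the first comparison and all 10 of the second kept their call without any 1 library. In tumour the identity scaling changes every receptor fold by over 1.5 times. Spleen levels of the ligands are limited by depth.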
